A study of Macaca radiata with 6 samples.

Results

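The ribosomal protein genes of the primate corpus luteum were examined as a cytosolic set and a mitochondrial set. Members were the probe sets whose annotation gave a single symbol of a numbered cytosolic ribosomal protein (names beginning RPL or RPS, RPLP0 to RPLP2 and RPSA) or of a numbered mitochondrial ribosomal protein (names beginning MRPL or MRPS). There were 158 such probe sets, of 98 genes, among the 52865 of the array. The cytosolic set held 61 probe sets of 36 genes and the mitochondrial set 97 probe sets of 62 genes. The sets are incomplete: RPSA, RPLP0, RPL3, RPL10, RPL11, RPS14, RPS4X and MRPL3, among others, had no such probe set. The corpus luteum, the ovarian gland that forms after ovulation and secretes progesterone, came from female bonnet monkeys (Macaca radiata) on day 10 of the luteal phase. The PGF2alpha group (replicates 1 to 3) received 3 intramuscular injections of prostaglandin F2-alpha, which induces regression of the gland, at 59 µg/kg body weight. The vehicle group (replicates 4 to 6) received phosphate-buffered saline by the same route, with no number of injections given. The time given is 24 h in both groups, and the titles that state it read "for 24 h". No genotype or age is given in the labels. Each group had 3 arrays, total RNA was hybridised to an Affymetrix chip with probes of the rhesus macaque, and the labels do not tie an array to an animal. The p-values therefore rest on how far these 6 samples scatter, which may be technical.

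Cytosolic ribosomes are built from a large and a small subunit whose proteins are encoded by nuclear genes. In most mammalian cells the mRNAs of these proteins carry a pyrimidine-rich start that couples their translation to growth signalling. Mitochondria contain ribosomes of bacterial ancestry, which translate the few membrane subunits of the respiratory chain encoded by mitochondrial DNA. All proteins of the mammalian mitochondrial ribosome are themselves made from nuclear genes in the cytosol and imported. The luteal cell is rich in mitochondria, and the first step of progesterone synthesis takes place on the inner mitochondrial membrane.

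The deposited values are signals computed per probe set with Microarray Suite 5.0 (MAS5), which were already scaled to one trimmed mean. Signals of different probe sets depend on their probes, so they are compared between arrays and not between genes. Array medians were 115 to 134 signal units. The RNA carried luteal transcripts: 8 of the 11 steroidogenic markers looked for were matched by symbol, and their summed signal was 79801 to 144846 in PGF2alpha arrays and 162888 to 194914 in vehicle arrays. STAR, which carries cholesterol into mitochondria, read 40203 ± 8854 after PGF2alpha and 63395 ± 7411 with vehicle (SD, n = 3 each). Fold changes below are differences of log2(signal + 40), PGF2alpha minus vehicle. A probe set was tested with limma if it reached its array's median in at least 3 arrays, and it was called at an adjusted p under 0.05, where p was adjusted by Benjamini-Hochberg over all 26944 tested probe sets.

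Mitochondrial ribosomal protein transcripts were mostly lower in PGF2alpha arrays by a small amount. Of 97 probe sets 86 were tested, and 68 of these, or 79.1%, had a negative log2 fold change, against 53.1% of all tested probe sets. Their median was -0.17 (interquartile range -0.29 to -0.03), against -0.03 over all tested probe sets. Singly, 5 fell and 1 rose, which is 6.98% of the set, while 5.01% of all tested probe sets were called (1.99% lower and 3.02% higher). In 25 probe sets, or 29.1%, all PGF2alpha arrays lay below all vehicle arrays, against 13.7% of all tested probe sets. The opposite order held in 3, or 3.49%, against 13% of all tested. An unadjusted p under 0.05 was reached by 16 lower and 4 higher members, against 10.7% and 10.3% of all tested probe sets. The single calls rested on few arrays: leaving out PGF2alpha replicate 1, 2 or 3 gave 0, 0 and 9 calls in the set, and leaving out vehicle replicate 4, 5 or 6 gave 1, 2 and 1. Over all probe sets the same fits gave 333, 177, 1800, 615, 636 and 433 calls.

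**Figure D1:**
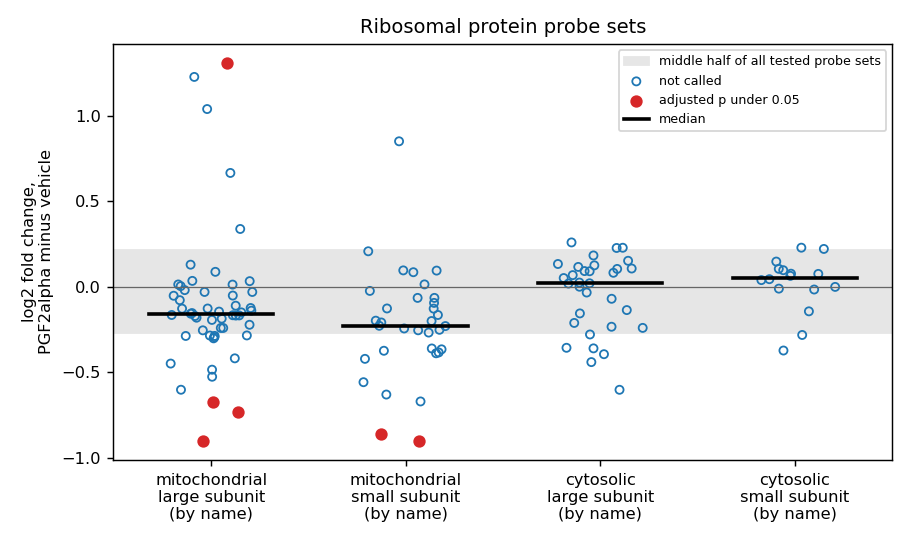
Log2 fold change, PGF2alpha minus vehicle, of each tested probe set (circles), by set and by the subunit its name gives. Filled red points are the 6 called probe sets, black bars are medians (-0.16 and -0.23 for the mitochondrial subunits, 0.02 and 0.05 for the cytosolic ones), and the grey band is the middle of all tested probe sets from -0.27 to 0.22.

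Most mitochondrial probe sets named for either subunit were negative, and the difference between the subunits was not tested. Of 53 tested probe sets of the large subunit 41 were negative, with a median of -0.16, 3 lower calls and 1 higher call. Of 33 of the small subunit 27 were negative, with a median of -0.23 and 2 lower calls. The names do not always give the place of the protein, since MRPS18A and MRPS30 sit in the large subunit of the mammalian mitochondrial ribosome. Members were also grouped by the number in their name, with a few exceptions, as a rough guide to a counterpart in bacterial ribosomes. Those grouped as having one had a median of -0.16 over 44 probe sets (34 negative). Those grouped as having none had -0.20 over 42 (also 34 negative). A number can misplace a protein, and MRPS28 (-0.42 and -0.67) was placed by its number among those without one. Counted as genes, with the brightest tested probe set of each, 49 of 61 were negative and 12 positive, and 3 were called, against 6.13% of all tested genes.

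In each array the level of the set was taken as the median, over its tested probe sets, of the log2 deviation from the probe set's own mean of the 6 arrays. For the mitochondrial set it was -0.12, -0.12 and -0.03 in PGF2alpha replicates 1, 2 and 3, against 0.14, 0.04 and 0.14 in vehicle replicates 4, 5 and 6. The groups did not overlap, and PGF2alpha replicate 3 and vehicle replicate 5 lay nearest to each other. The level over all tested probe sets stayed between -0.02 and 0.05. The arrays were grouped by the recorded clock hour of hybridisation alone, without its date. The groups are called runs here, although the labels name no run or batch. Run 1 held 4 arrays (PGF2alpha 1, PGF2alpha 3, vehicle 5, vehicle 6) and run 2 held 2 (PGF2alpha 2, vehicle 4). The median fold change of the mitochondrial set was -0.11 within run 1 (68 of 86 probe sets negative) and -0.22 within run 2 (66 negative), and 57 probe sets were negative in both. By subunit the medians in run 1 were -0.11 for the large and -0.16 for the small subunit, and those in run 2 were -0.18 and -0.42.

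**Figure D2:**
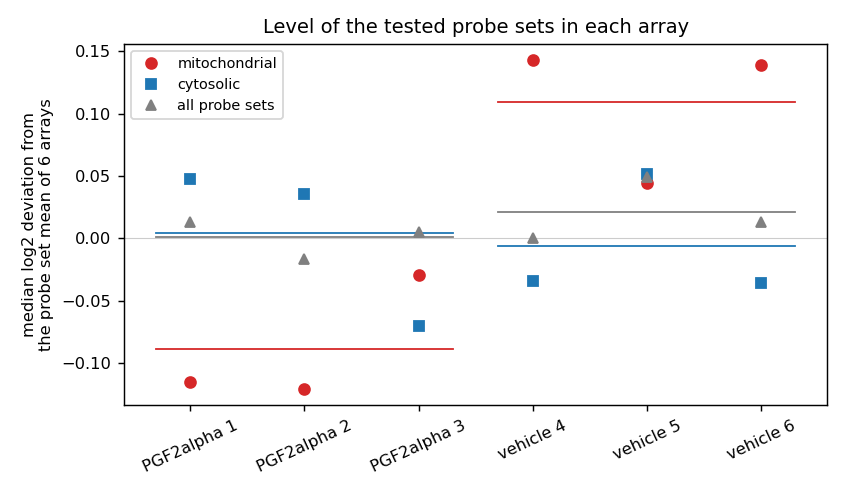
Median log2 deviation of the tested probe sets from their own 6-array mean (vertical axis) in each array, for the mitochondrial set (red circles), the cytosolic set (blue squares) and all tested probe sets (grey triangles). Horizontal lines are group means. The mitochondrial set lies at or below -0.03 in every PGF2alpha array and at or above 0.04 in every vehicle array, while the cytosolic set overlaps.

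Markers of other cells moved between the same groups. All 14 macrophage markers tested (of 17 looked for) had a positive log2 fold change, and 7 of them rose. Their summed signal was 57452 to 97148 in PGF2alpha arrays and 24717 to 40215 in vehicle arrays. Among the 7, MARCO reached the array median only in PGF2alpha arrays (640, 670 and 394, against 21.1, 45.3 and 115 with vehicle). Its sign was thus fixed by its being tested, and it adds nothing to the count. Of the 8 steroidogenic luteal markers all were negative and 2 fell, with the sums given above. The same limit holds for HSD17B1, which was not called and reached the array median only in vehicle arrays. It read 89.3, 24.9 and 26.2 after PGF2alpha, against 155, 351 and 170. None of the markers of either list was listed at 0. Neutrophil markers rose in 4 of 4 tested (of 9 looked for), with summed signals of 12379 to 30877 against 3467 to 6732. In the other marker lists 1 of 11 endothelial, 1 of 3 lymphocyte, 1 of 6 fibroblast and 0 of 3 red cell markers tested rose, and 0 fell. The markers looked for in these lists were 11, 11, 7 and 6. Beside these counts, 6.13% of all tested genes were called. In whole tissue, fewer cells of a type and less RNA per cell cannot be told apart, and the part of these shifts in the ribosomal values was not tested. The ratio of the 3-prime to the 5-prime control probe sets of beta-actin was 1.73 to 1.78 in PGF2alpha arrays and 1.49 to 2.25 in vehicle arrays, with the highest value in vehicle replicate 5 (exact permutation p = 1, where 0.1 is the smallest that 3 against 3 arrays can give). The corresponding ratio of GAPDH was 1.39 to 1.68 against 1.41 to 1.73 (exact permutation p = 1). Its part in the ribosomal values was not tested either.

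MRPL19, a large-subunit protein related to bacterial L19, had the smallest p of the set. Its signal was 1187, 1245 and 1233 in PGF2alpha arrays, against 2039, 2587 and 2351 in vehicle arrays. The groups were well separated and the PGF2alpha arrays were close to each other, with means of 1222 ± 30.3 and 2326 ± 275 (SD, n = 3 each). MRPL19 fell by 0.90 on the log2 scale (SE 0.145, limma adjusted p = 0.0131).

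MRPS33, a small-subunit protein with no bacterial counterpart, read 3284, 3237 and 4871 after PGF2alpha and 7399, 6167 and 7484 with vehicle. PGF2alpha replicate 3 was the nearest to the vehicle arrays. MRPS33 fell by 0.90 (SE 0.182, limma adjusted p = 0.0276).

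MRPS5 is the relative of bacterial S5, a protein of the small subunit near the entry of the mRNA. Its called probe set read 152, 162 and 194 in PGF2alpha arrays, against 347, 354 and 315 in vehicle arrays. The PGF2alpha values were close to the medians of those arrays (126, 115 and 126). This probe set fell by 0.86 (SE 0.189, limma adjusted p = 0.0351). Over the alternatives other than leaving out single arrays, its log2 fold change ran from -0.96 to -0.60. The brighter probe set of MRPS5 can cross-hybridise and read 623, 587 and 541 against 692, 672 and 767. It had the same order without overlap but was not called (-0.27, adjusted p = 0.352).

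MRPL57, a small mitochondrion-specific protein of the large subunit, had 2 tested probe sets that moved together. The called one can cross-hybridise. It read 1558, 1603 and 1927 in PGF2alpha arrays, against 2946, 2936 and 2617 in vehicle arrays, and fell by 0.73 (SE 0.145, limma adjusted p = 0.0266). The other read 2172, 2733 and 2801 against 3858, 3685 and 4148, with a log2 fold change of -0.60 just outside the threshold (adjusted p = 0.0517). In both, all PGF2alpha arrays lay below all vehicle arrays. MRPL43, also mitochondrion-specific, fell by 0.67 in a probe set that can cross-hybridise, with 916, 801 and 938 against 1382, 1348 and 1573 (SE 0.148, limma adjusted p = 0.0353). Its other probe set overlapped between groups (-0.14, adjusted p = 0.614), so the probe sets of MRPL43 differed in size.

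MRPL58 was the member of the set that rose. It is a peptidyl-tRNA hydrolase built into the large subunit, which frees peptides from stalled mitochondrial ribosomes. Its signal was 676, 795 and 488 in PGF2alpha arrays, against 150, 210 and 397 in vehicle arrays. The groups did not overlap, though PGF2alpha replicate 3 and vehicle replicate 6 were close, and MRPL58 rose by 1.31 on the log2 scale (SE 0.307, limma adjusted p = 0.0439). Within runs 1 and 2 the difference was 0.90 and 2.14, and with the run as a block MRPL58 was not called (adjusted p = 0.0539).

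**Figure D3:**
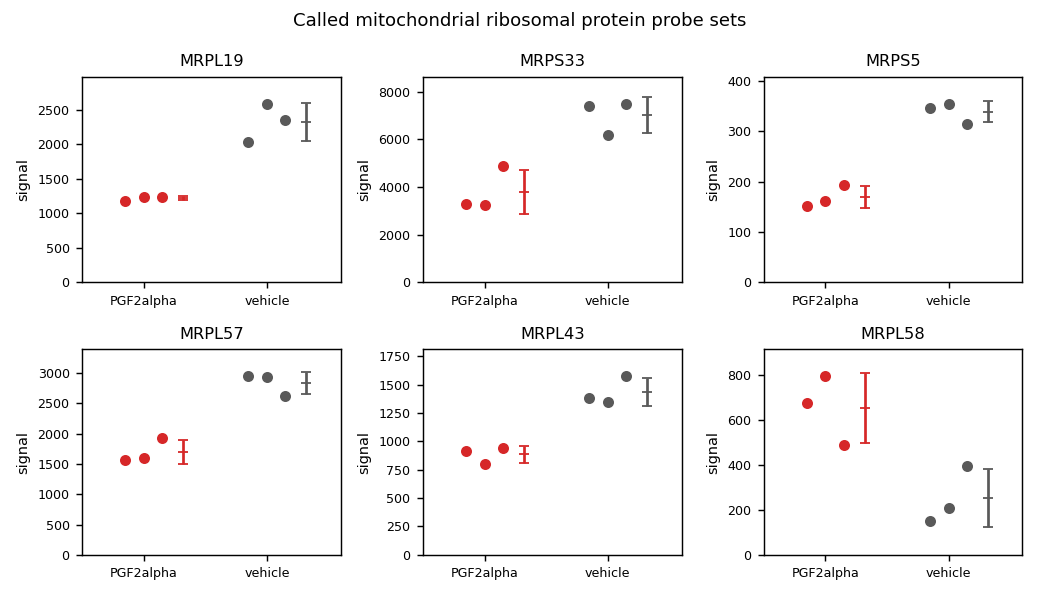
Signal (linear, from 0) of the 6 called mitochondrial probe sets in PGF2alpha arrays (red, left) and vehicle arrays (grey, right), with mean and SD beside the points. All PGF2alpha points lie below all vehicle points in 5 panels and above them in that of MRPL58.

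Each of these calls was lost when some arrays were left out. MRPL19 lost its call when PGF2alpha replicate 1, PGF2alpha replicate 2 or vehicle replicate 6 was left out (adjusted p of 0.0547, 0.0616 and 0.057), and its adjusted p ran from 0.0109 to 0.0868 over 17 alternatives. For MRPS33 the arrays whose removal ended the call were PGF2alpha 1, PGF2alpha 2, vehicle 4 and vehicle 6 (adjusted p of 0.103, 0.111, 0.0858 and 0.106). For MRPL58 they were PGF2alpha 1, PGF2alpha 2, vehicle 4 and vehicle 5 (adjusted p of 0.135, 0.167, 0.114 and 0.113). The called probe sets of MRPS5, MRPL57 and MRPL43 were lost when any array but PGF2alpha replicate 3 was left out, at adjusted p from 0.094 to 0.117 for MRPS5, 0.0694 to 0.102 for MRPL57 and 0.0678 to 0.143 for MRPL43. The direction of the 6 was the same throughout.

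Other members had higher values after PGF2alpha without a call in the fit of all 6 arrays without a block. MRPL30, related to bacterial L30, read 2020, 2186 and 546 in PGF2alpha arrays, against 474, 635 and 563 in vehicle arrays. Replicates 1 and 2 were thus well above every vehicle array, and replicate 3 was among them. MRPL30 stood at 1.23 (SE 0.441, adjusted p = 0.15), and without PGF2alpha replicate 3 it was 1.85 (adjusted p = 0.00132). Leaving out the array that differed from the other PGF2alpha arrays had to lower the p, so this value adds no support. MRPL30 was called in only this 1 of 17 alternatives. The second probe set of MRPL30, which can cross-hybridise, showed the same pattern, with 1371, 1296 and 399 against 427, 402 and 421. MRPS26, a mitochondrion-specific small-subunit protein, read 2638, 4141 and 3827 against 2497, 1769 and 1568 (0.85, adjusted p = 0.0615). With the run as a block this probe set was called (adjusted p = 0.0342). The other probe set of MRPS26 had the opposite sign and no overlap, at 1964, 1696 and 1824 against 2294, 2175 and 2071 (-0.25, adjusted p = 0.336). MRPL52 had a log2 fold change of 0.34 without overlap (adjusted p = 0.243) and MRPS9 one of 0.21 (adjusted p = 0.6).

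Among the uncalled members of negative sign, MRPL1, whose bacterial relative forms the stalk at the tRNA exit site, read 1697, 1866 and 2072 against 2886, 2467 and 2799 (-0.52, adjusted p = 0.0727). MRPS18A, a relative of bacterial S18, stood at -0.63 (adjusted p = 0.149) and its second probe set at -0.56 (adjusted p = 0.0757). MRPL12, a protein of the stalk that engages translation factors, read 1402, 1342 and 1290 in PGF2alpha arrays, against 1629, 1514 and 1579 in vehicle arrays. Its groups did not overlap, and the log2 fold change was -0.22 (adjusted p = 0.39). MRPS30, first described as a programmed cell death protein, stood at -0.36 (adjusted p = 0.201) in its brighter probe set, also without overlap. Its other tested probe set stood at -0.13 (adjusted p = 0.834), and there the groups overlapped.

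The remaining mitochondrial members chosen by role had log2 fold changes between -0.20 and 0.09 in the brightest tested probe set of each. MRPL41, which has been linked to apoptosis, stood at -0.15 (adjusted p = 0.621), and MRPS12, a protein of the decoding centre, at -0.20 (adjusted p = 0.498). MRPS16 (-0.16, adjusted p = 0.555) and MRPS22 (-0.13, adjusted p = 0.693) are genes whose loss impairs mitochondrial translation in people. MRPS27, which has RNA-binding repeats, stood at 0.09 (adjusted p = 0.816). MRPL44, a relative of ribonuclease III, stood at 0.01 (adjusted p = 0.972). MRPL11, at the base of the stalk, stood at 0.00 with 95% limits of -0.52 and 0.53 (adjusted p = 0.993). A second tested probe set had the opposite sign for MRPS16 (0.10, adjusted p = 0.813) and for MRPL44 (-0.19, adjusted p = 0.682). MRPL33 (-0.25, adjusted p = 0.463) and MRPL53 (-0.19, adjusted p = 0.475) entered as bright probe sets, and the groups of MRPL53 did not overlap. Of 21 mitochondrial genes with several tested probe sets, these had one sign in 14 and mixed signs in 7.

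Cytosolic ribosomal protein transcripts showed 0 calls. Of 61 probe sets 48 were tested, and 30 were positive and 18 negative, with a median log2 fold change of 0.04 (interquartile range -0.15 to 0.11). By limma 0 passed at an adjusted p of 0.05, against 5.01% of all tested probe sets. At an unadjusted p under 0.05 there were 1 higher and 3 lower, against 21% of all tested probe sets in either direction. All PGF2alpha arrays lay above all vehicle arrays in 7 probe sets (14.6%, against 13% of all tested) and below them in 4 (8.33%, against 13.7%). The whole range ran from -0.60 to 0.26. Of the 48, 39, or 81.3%, lay within 0.25 of 0, against 50.8% of all tested probe sets and 59.3% of the mitochondrial set. The 2 sets also differed in precision and brightness, with a median SE of 0.131 in the cytosolic and 0.160 in the mitochondrial set. The mean signal was above 10000 in 27 of the 48, against 0 of the 86 mitochondrial ones. The part of this in the narrower range was not tested. The 95% interval of the difference lay within 1.5-fold either way in 36 of the 48 and within 2-fold in 45. The large subunit had a median of 0.02 over 32 probe sets and the small subunit 0.05 over 16.

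The array levels of the cytosolic set overlapped between groups, at 0.05, 0.04 and -0.07 in PGF2alpha replicates 1 to 3 and -0.03, 0.05 and -0.04 in vehicle replicates 4 to 6. The cytosolic median stood at -0.01 in the arrays of run 1 and 0.11 in those of run 2. Leaving out vehicle replicate 4 gave -0.0041, so the sign of the median depended on the arrays used. Read by brightness, the 27 tested cytosolic probe sets with a mean signal above 10000 had a median of 0.08 (5 negative), and the 21 dimmer ones had -0.14 (13 negative). This split was made after the values were seen. It was not tested, and all 669 tested probe sets above 10000 had a median of 0.03. In 4 of the 13 cytosolic genes with several tested probe sets, namely RPL15, RPL29, RPS15 and RPS3, the dimmer ones had the opposite sign to the brightest.

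The most positive cytosolic gene was RPL12, which lies at the base of the acidic stalk. It read 27858, 28050 and 25206 in PGF2alpha arrays, against 22193, 22015 and 23454 in vehicle arrays. The groups did not overlap, but the difference was small, at 0.26 with 95% limits of 0.01 and 0.51 (adjusted p = 0.213). RPL8, a protein of the peptidyl transferase centre, read 15322, 14574 and 12872 against 12281, 12148 and 11952 (0.23, adjusted p = 0.314). RPL10A, the counterpart of the bacterial L1 stalk protein, read 20389, 20892 and 19225 against 18148, 18584 and 17663 (0.15, adjusted p = 0.469). In RPL8 and RPL10A, too, all PGF2alpha arrays were above all vehicle arrays. The probe sets of RPL12 and RPL8 can cross-hybridise, and neither gene had another tested one.

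The most negative was RPL24, a large-subunit protein at a bridge between the subunits. It read 1788, 3348 and 2502 in PGF2alpha arrays, against 3724, 3730 and 3833 in vehicle arrays. The vehicle arrays were nearly equal and the PGF2alpha arrays scattered below them, and the difference was -0.60 (SE 0.21, adjusted p = 0.14). It was -0.37 without PGF2alpha replicate 1 and -0.82 without PGF2alpha replicate 2. RPL22, an RNA-binding protein of the large subunit, read 2674, 2584 and 2702 against 3593, 3553 and 3117 (-0.36, adjusted p = 0.155). Its second tested probe set gave the same value with overlapping groups (-0.36, adjusted p = 0.305). The smallest p of the set belonged to the dimmer probe set of RPL15, named after its values were seen, with 3742, 4190 and 4627 against 5885, 5159 and 6003 (-0.44, adjusted p = 0.107). The brighter probe set of RPL15 stood at 0.07 (adjusted p = 0.806).

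**Figure D4:**
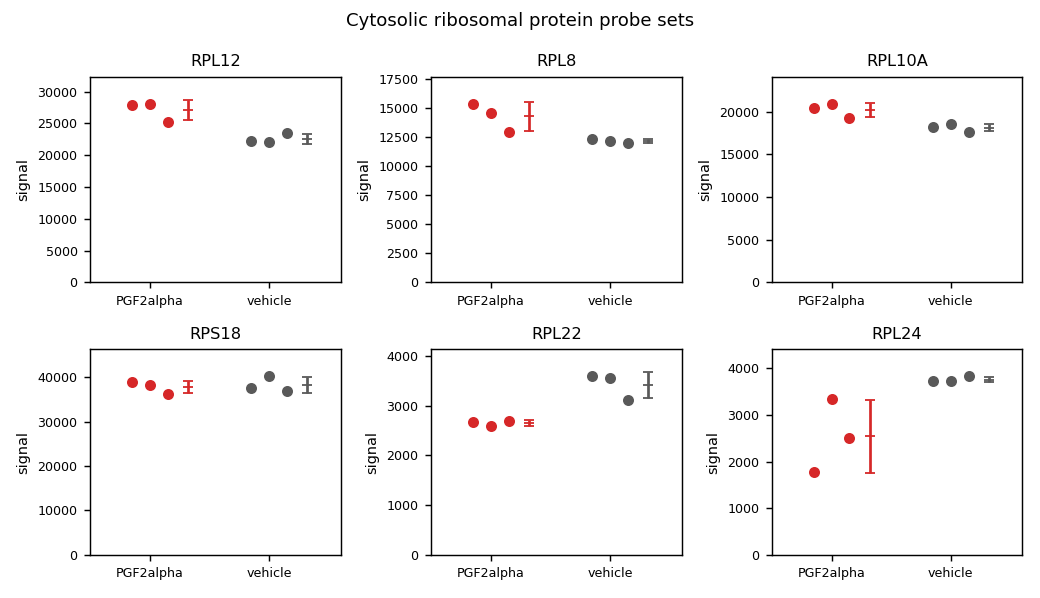
Signal (linear, from 0) of 6 cytosolic ribosomal protein genes in PGF2alpha arrays (red, left) and vehicle arrays (grey, right), with mean and SD. RPL12, RPL8 and RPL10A are slightly higher in PGF2alpha arrays, RPS18 overlaps, RPL22 and RPL24 are lower, and none was called.

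Of the acidic stalk that recruits elongation factors, RPLP1 read 39173 ± 3620 after PGF2alpha and 36719 ± 2618 with vehicle (SD, n = 3 each). RPLP1 stood at 0.09 (adjusted p = 0.716) and RPLP2 at 0.18 (adjusted p = 0.465), while RPLP0 had no probe set in the set. RPS6, the substrate of S6 kinase, stood at 0.11 (adjusted p = 0.65), and RPS3, at the mRNA entry channel, at 0.15 without overlap (adjusted p = 0.474). RPS18 read 38927, 38193 and 36186 in PGF2alpha arrays, against 37480, 40212 and 36842 in vehicle arrays, with 95% limits of -0.25 and 0.22. RPL17 (0.13), RPL26 (0.08) and RPL9 (0.11) had adjusted p of 0.51, 0.779 and 0.705.

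Several ribosomal proteins can bind MDM2, the ligase that keeps p53 low, and so link ribosome assembly to p53. Of 9 such genes looked for, 5 were tested and 0 were called, against 6.13% of all tested genes, with a median of 0.00. They were RPS3, RPL26, RPL23 (-0.07, adjusted p = 0.779), RPS7 (0.00, adjusted p = 0.999) and RPS27L, a p53-inducible relative of RPS27. RPS27L read 82.3, 113 and 212 in PGF2alpha arrays, against 171, 208 and 156 in vehicle arrays, close to the median of the arrays (-0.37, adjusted p = 0.54). Its other probe set was not tested and read 213, 173 and 117 against 74.2, 102 and 117, with the opposite sign. RPL31 (-0.39, adjusted p = 0.47) and RPS16 (0.22, adjusted p = 0.687) were likewise close to the array medians. RPL32 stood at -0.21 (adjusted p = 0.522).

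Set against each other, the median log2 fold change of the cytosolic set exceeded that of the mitochondrial set by 0.21. Over the 17 alternatives this difference was 0.10 to 0.28, the lowest in run 1 alone, and with single arrays left out it was 0.15 to 0.28. By array, the cytosolic minus the mitochondrial level was 0.16, 0.16 and -0.04 in PGF2alpha replicates 1 to 3, against -0.18, 0.01 and -0.18 in vehicle replicates 4 to 6. PGF2alpha replicate 3 lay below vehicle replicate 5, so the groups overlapped in this measure. No p is given for it, since the members were chosen with earlier results known. The sets also differed in brightness: 0 of the 86 tested mitochondrial probe sets had a mean signal above 10000, against 27 of 48 cytosolic ones. The 21 cytosolic probe sets below 10000 had a median of -0.14, close to the -0.17 of the mitochondrial set. The part of brightness in the difference between the sets was not tested. As a share of the summed signal of all probe sets other than controls, the mitochondrial set took 0.336%, 0.346% and 0.371% in PGF2alpha arrays and 0.419%, 0.376% and 0.423% in vehicle arrays. The cytosolic set took 1.97%, 1.997% and 1.80% in PGF2alpha arrays and 1.81%, 1.93% and 1.84% in vehicle arrays. The share of the mitochondrial set was thus lower in every PGF2alpha array than in any vehicle array, and that of the cytosolic set overlapped.

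Companion lists of the translation machinery were read with the brightest tested probe set of each gene, among 9980 tested genes with a median of -0.02, of which 51.9% were negative and 6.13% were called. Of 33 tested mitochondrial translation factors 24 were negative and 9 positive, with a median of -0.12, and 0 were called, against the 6.13% of all tested genes. The 2 of smallest p were FASTKD2, an RNA-binding assembly factor of the mitochondrial ribosome (-0.39, adjusted p = 0.131), and MTIF3, an initiation factor (-0.52, adjusted p = 0.135). Of 33 cytosolic translation factors 17 were negative and 16 positive, with a median of -0.02 and 0 calls against the same share. EEF1E1, a scaffold of the tRNA synthetase complex, stood at -0.80 (adjusted p = 0.0578) and the initiation factor subunit EIF3B at 0.56 (adjusted p = 0.0598).

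Of 41 factors for making and modifying ribosomes 25 were positive, with a median of 0.08 and 0 calls, against 6.13% of all tested genes. The 2 of smallest p were PES1 (0.48, adjusted p = 0.138) and NOC2L (0.42, adjusted p = 0.166), both factors of nucleolar assembly. Of 10 further ribosomal proteins or paralogs outside the name pattern 7 were positive, with a median of 0.06 and 0 calls. The 2 of smallest p were RPL7L1 (0.41, adjusted p = 0.149) and RPL26L1 (-0.35, adjusted p = 0.221).

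**Figure D5:**
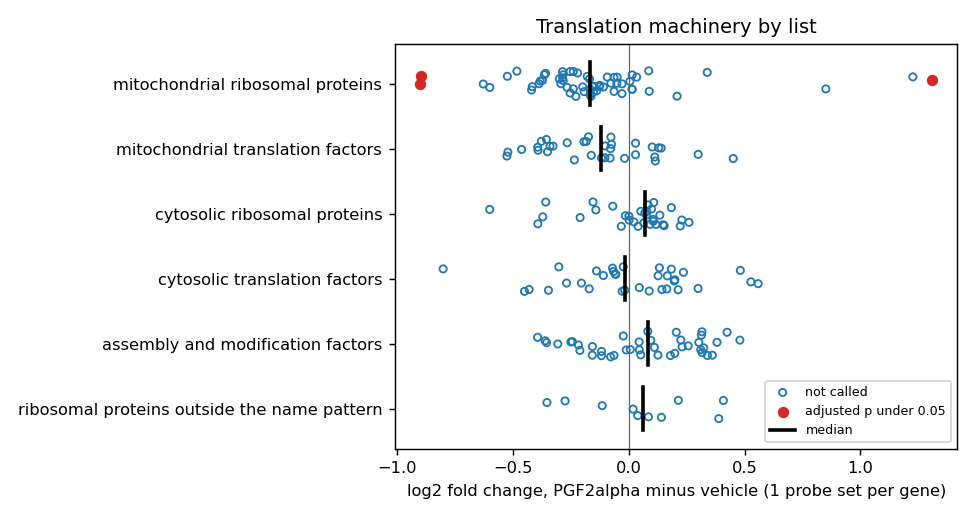
Log2 fold change, PGF2alpha minus vehicle, of each tested gene (circles, brightest tested probe set) in 6 lists of the translation machinery, with black bars at the medians. The mitochondrial lists have medians of -0.17 and -0.12, the cytosolic ribosomal proteins 0.07 and the cytosolic translation factors -0.02, and filled red points are called genes.

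The members that did not pass the brightness filter were 13 cytosolic and 11 mitochondrial probe sets. Their 6-array means were 5.94 to 133 and 40.9 to 118. For 3 cytosolic genes no probe set was tested: RPL5, which binds MDM2, RPS19, mutated in an inherited anaemia, and RPL3L, a muscle paralog of RPL3. Signals depend on the probes, so the low values do not show that RPL5 or RPS19 was not expressed. RPL3L read 15.03, 52.7 and 67.0 in PGF2alpha arrays, against 21.8, 85.2 and 14.1 in vehicle arrays, with overlap. In the mitochondrial set 1 gene had no tested probe set, MRPS6, at 105, 80.3 and 79.2 against 147, 107 and 119, which did not overlap. Of the tested members 0 passed the filter through the arrays of a single group.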

How the data were processed

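Corpus luteum RNA was hybridised to 6 Affymetrix rhesus arrays (3 PGF2alpha, 3 vehicle). The deposited values are MAS5 signal intensities on a linear scale, per the labels' descriptions. No software version beyond that name is given in the sources used here. Each array had a trimmed mean of 500. Genes were named from the platform annotation, which can be old: 24969 probe sets had 1 symbol, 361 several and 27535 none. The 99 control probe sets were left out. A probe set was tested if it reached its array's median in at least 3 of 6 arrays. Values were log2(signal + 40), fitted with limma 3.58.1 in R 4.3.3 (lmFit, eBayes with a variance trend, two-sided, no block) over all 26944 tested probe sets, with Benjamini-Hochberg adjustment and a threshold of 0.05. Probe sets whose identifiers end in _x_at, _s_at or _a_at were taken as able to cross-hybridise. These were 16 of the 48 tested cytosolic and 14 of the 86 tested mitochondrial probe sets, and not each is marked in the text. The number of arrays limits the precision, and detection calls were not used. Correlations between arrays were 0.912 to 0.967, and no 2 arrays were counted as 1.

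In each set the genes named were those with a called probe set, the 5 tested genes of highest and the 5 of lowest log2 fold change, the 5 brightest, and a list by role. Of each companion list the 2 of smallest p were named. Members, lists and tests were chosen with earlier results of these data known, and the grouping by bacterial counterpart after the values were seen. The fit was tested on simulated data. Alternatives were quantile normalization, median scaling, pseudocounts of 10 and 160, no filter, a filter at the 70th percentile, no variance trend, the hybridisation run as a block, no cross-hybridising probe sets, 1 probe set per gene, each array left out, and, added after seeing the data, run 1 alone.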

Additional observations from a re-analysis of the deposited data

How the results depend on the processing

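Over 17 alternatives the mitochondrial median stayed negative (-0.22 to -0.12) and the cytosolic set had 0 calls in each. The cytosolic median, 0.04 as reported, was -0.004146 without vehicle replicate 4 and -0.0135 in run 1 alone. Median scaling turned the median of all tested probe sets to 0.02, from -0.03 as reported. The 6 mitochondrial calls became 2 without the variance trend, 0 in run 1 alone and 0 to 9 with single arrays left out. The 1351 calls over all probe sets became 826 without the filter and 825 with 1 probe set per gene, where other numbers of probe sets were tested, 669 without the trend, 40 in run 1 alone (4 arrays, an alternative chosen after seeing the data) and 177 to 1800 with single arrays left out. MRPL58 was not called with the run as a block (1.31 as reported, adjusted p = 0.0539 with the block), and MRPS26 was (adjusted p = 0.0342). Genes near 0 changed sign: MRPL11 was -0.0003381 with a pseudocount of 160 and -0.27 to 0.21 with single arrays left out, MRPL44 -0.001111 in run 1 and -0.05146 to 0.08837, MRPS27 -0.09135 in run 1 and -0.0253 to 0.1703, RPL26 -0.01982 to 0.1484, RPL9 -0.06729 in run 1 and -0.006592 to 0.1716, and RPS18 0.03256 with median scaling and -0.04034 to 0.02273. The cause of these changes was not tested. Of 38 uncalled named probe sets 35 were called under none of the alternatives. No paired analysis was possible because the groups share no replicate numbers. Probe sets below the array median were not tested.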
